A study of Mus musculus with 2 samples.

Results

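The immunoglobulin heavy chain locus of the mouse and the gene-rich DNA next to it on chromosome 12 were described in 2 immunoprecipitation libraries of embryonic stem (ES) cells. The stretches were set by position on the mm9 build: the locus from 114500001 to 117250000 and its flank on the centromeric side from 113000001 to 114500000. They cover 4250 bins of 1 kb, 2750 in the locus and 1500 in the flank, of 2638998 bins on chromosomes 1 to 19 and X. Within the locus, the first 250 kb were taken as the constant part and the other 2500 kb as the part that holds the variable segments. The rule uses position alone, but the stretches were proposed with earlier results of these data known.

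Both libraries came from mouse ES cells kept in medium with LIF, a cytokine that holds them pluripotent, on no feeder layer. For the library labelled H2ABbd, chromatin crosslinked with formaldehyde was precipitated with a rabbit antibody against mouse H2ABbd, a short histone H2A variant (ChIP-seq). For the library labelled 5mC, denatured genomic DNA was precipitated with a mouse monoclonal antibody against methylated cytosine (MeDIP-seq). There was 1 library per group, no treatment and no control (input) library was used here. No difference between the libraries therefore has a replicate check, and every interval below is a 95% interval that covers counting error only. Each deposited file is named for the antibody of the other sample, so every direction rests on the sample labels.

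The heavy chain locus is assembled by recombination only in lymphocytes: a variable, a diversity and a joining segment are brought together in developing B cells, and class switching later exchanges the constant region. In ES cells the locus is in germline order. Its expression there was not measured, since both libraries hold DNA. Mammalian DNA is methylated mainly at CpG, and CpG-dense promoters of broadly used genes are usually free of methylation.

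In the RefSeq table (GRCm38.p6, used for names and order only, with no position moved to mm9) the locus holds 8 constant regions, 4 joining segments, 20 diversity segments of which 10 are pseudogenes, and 183 variable segments of which 63 are pseudogenes. The order starts at the flank with Igha, Ighe, Ighg2c, Ighg2b, Ighg1, Ighg3, Ighd and Ighm, the genes for the constant regions of IgA, IgE, the IgG subclasses, IgD and IgM. The joining and diversity segments follow, then Adam6b and Adam6a, a pair of sperm proteins' genes that are the only protein-coding genes listed inside, and then the variable segments. The last genes on the flank side are Mta1 (a subunit of the NuRD chromatin remodelling complex), Crip2, Gm30599, Crip1, Tedc1 and Tmem121. Beyond the variable segments lie Zfp386 (a zinc finger protein), Vipr2 (a receptor for vasoactive intestinal peptide) and Ptprn2 (a phosphatase-like protein of secretory granules).

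The listed promoters on either side of the border differ in CpG. Of 22 listed genes on the flank side, 20 had a promoter in the table. Their 250 bases before the start held 3 to 54 CpG with a median of 20.5, and 17 of the 20 (85%) held 10 or more. Jag2, a Notch ligand, had the most, and Akt1, a kinase of insulin and growth factor signalling, held 7. Among 27025 promoters of the table the median was 6, and 38.2% held 10 or more. The 2 promoters inside the locus held 0 (Adam6b) and 1 (Adam6a), and the 3 beyond it held 12 to 15. The 8 listed constant region genes had no promoter in the table, and the other segments were not listed. The values inside the locus thus rest on the Adam6 pair alone. The 250 bases before the start of the last gene of the flank and of the first protein-coding gene inside the locus, from RefSeq on GRCm38.p6, 5′ to 3′ on the + strand, are shown to let this contrast be seen, with each CG in capitals. They lie at chr12:113185653-113185902 (20 CpG, 66.4% G or C) and chr12:113489315-113489564 (0 CpG, 47.2% G or C) of that build.
Tmem121: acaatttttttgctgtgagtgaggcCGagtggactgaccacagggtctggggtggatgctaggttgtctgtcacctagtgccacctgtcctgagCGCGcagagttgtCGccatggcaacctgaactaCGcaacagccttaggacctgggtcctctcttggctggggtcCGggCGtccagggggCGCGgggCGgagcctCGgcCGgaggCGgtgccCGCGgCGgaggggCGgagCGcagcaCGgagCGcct
Adam6b: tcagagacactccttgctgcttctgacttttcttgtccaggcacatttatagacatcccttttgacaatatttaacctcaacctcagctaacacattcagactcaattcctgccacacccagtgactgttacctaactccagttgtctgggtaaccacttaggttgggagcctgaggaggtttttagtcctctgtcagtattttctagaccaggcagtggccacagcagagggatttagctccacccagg
No read count is given for these promoters, because the reads are on mm9.

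Aligned reads numbered 3503839 for H2ABbd and 9266471 for 5mC. Reads that share their 5′ end and strand were counted as 1, which left 1397289 and 8056333 distinct reads. A bin is called non-empty where either library had a read, and the autosomal mean was 0.622 and 3.55 distinct reads per non-empty kb. Density below is the distinct reads per non-empty kb divided by that mean. The library ratio is the depth-scaled count (RPM, reads scaled to the distinct reads of each library) of H2ABbd divided by that of 5mC, and it was 1.01 over the autosomes.

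The flank was rich in reads of the library labelled H2ABbd and the locus was poor in them. In the flank the library labelled H2ABbd had 6058 distinct reads and the library labelled 5mC had 9678. Its density was 6.51 times the autosomal mean (6.35 to 6.68) in the first and 1.82 times (1.79 to 1.86) in the second. Both libraries were thus denser in the flank than over the autosomes, H2ABbd by far the more, and the library ratio was 3.61 (3.49 to 3.73). The locus, a longer stretch, held 1053 and 7674 distinct reads. Its density was 0.725 (0.682 to 0.770) for H2ABbd and 0.925 (0.905 to 0.946) for 5mC, so both were below the autosomal mean, and the library ratio was 0.791 (0.741 to 0.844). With all aligned reads kept, repeats included, the H2ABbd density was 3.26 in the flank and 0.331 in the locus. From locus to flank the H2ABbd density of distinct reads was 8.98-fold higher (8.41 to 9.60), the 5mC density 1.97-fold (1.91 to 2.03) and the library ratio 4.56-fold (4.24 to 4.91).

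Coverage differed in the same direction. Of the 1500 bins of the flank, 80.0% had a read of the library labelled H2ABbd and 99.2% one of the library labelled 5mC, and 5 bins (0.333%) had neither. In the locus 22.9% and 81.7% had one, and 416 of 2750 bins (15.1%) had neither. Over the autosomes the shares were 28.4%, 85.9% and 12.5%, so the locus was far closer to them than the flank was. In the DNA beyond the locus, to the end of the chromosome, they were 21.9%, 88.1% and 10.1%. The locus held 10 runs of 5 kb or more with no read in either library, 59 kb in all, and the flank held 0 such runs. The longest were 7 kb, from 115076001 to 115083000, 116344001 to 116351000 and 117192001 to 117199000. The others of 5 or 6 kb began at 115307001, 115890001, 116269001, 116275001, 116288001, 116294001 and 116565001. Such runs were counted in the locus and the flank only, so they cannot be called particular to the locus. How many of the bins without a read cannot be mapped was not tested. With all aligned reads kept, repeats included, the ratio was 2.00 in the flank and 0.411 in the locus. Reads per position were 1.28 for H2ABbd in the flank and 1.17 in the locus, but 2.56 over the autosomes.

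In 100 kb steps the ratio stayed at or above 2 along the whole flank and below 2 along the whole locus. The 15 steps of the flank had ratios of 2.08 to 7.81 with a median of 3.22. The 28 steps of the locus, the last of them 50 kb long, had 0.184 to 1.80 with a median of 0.749. The 2 groups of steps did not overlap. Among 23995 autosomal windows of 100 kb with at least 50 distinct 5mC reads the median was 0.844 and the 5th and 95th percentiles 0.430 and 1.72. A ratio of 2 or more was found in 2.32% of those windows, and in 15 of 15 steps of the flank against 0 of 28 of the locus. A ratio below 0.5 was found in 9.96% of the windows and in 7 of the 28 steps of the locus. The flank belongs to the longest unbroken run of autosomal windows at or above 2, 16 windows or 1.6 Mb from 112900001 to 114500000. The next longest runs, on chromosomes 4 and 7, held 4 windows each. These shares and runs rest on the labels: with the libraries exchanged, as the file names have them, the same windows would be those at or below 0.5.

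**Figure D1:**
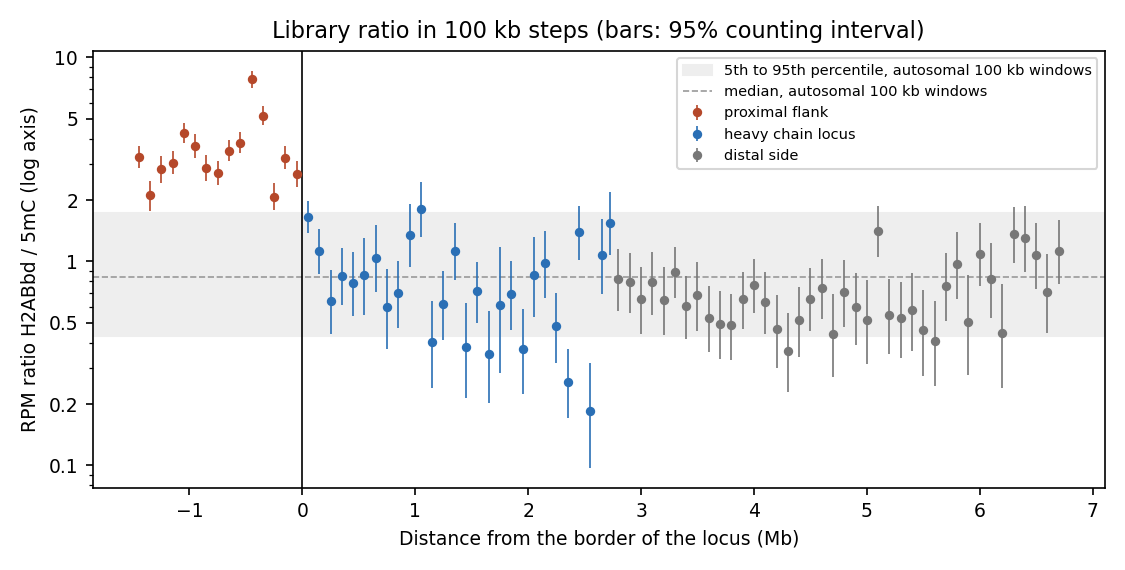
Library ratio (RPM of the library labelled H2ABbd over that of the library labelled 5mC, log axis) in 100 kb steps against distance from the border at 114.5 Mb of chromosome 12, with 95% counting intervals. All 15 flank steps lie at 2.08 or above and all 28 locus steps at 1.80 or below.

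From the last step of the flank on, the ratio came down over several steps, not in one. In the 5 steps before the border, from 114.0 Mb on, the library labelled H2ABbd held 961, 621, 230, 366 and 283 distinct reads. The library labelled 5mC held 709, 691, 637, 655 and 607 in the same steps. The ratios were 7.81, 5.18, 2.08, 3.22 and 2.69, and 1 autosomal window exceeded the first of them. That first step holds the 9 kb block described below, and without the block its ratio was 2.66. With that value the flank steps showed no steady fall toward the border. In the 5 steps after the border H2ABbd held 158, 76, 35, 46 and 37 distinct reads and 5mC 551, 391, 314, 312 and 272. The ratios there were 1.65, 1.12, 0.643, 0.850 and 0.784. Both libraries thus thinned out across the border, H2ABbd more than 5mC. The interval of the last step of the flank (2.33 to 3.10) did not meet that of the first step of the locus (1.38 to 1.98), which met that of the second (0.865 to 1.44).

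Taken over 500 kb on either side, the ratio was 4.30 before 114.5 Mb and 1.10 after it, a 3.90-fold fall (3.44 to 4.43). A change of 3-fold or more in either direction was found at 0.259% of 23896 autosomal positions tested in the same way. Larger changes than this one were found at 18 positions, 9 of them on chromosome 2 and 4 on chromosome 9. Of the 2461 H2ABbd distinct reads in the 500 kb before 114.5 Mb, 693 lay in the 9 kb block described below. The fall without that block alone was not computed. Without the 0.1% most covered bins, which include those of the block, the fall was 2.44-fold, and 27 positions had a larger change.

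**Figure D2:**
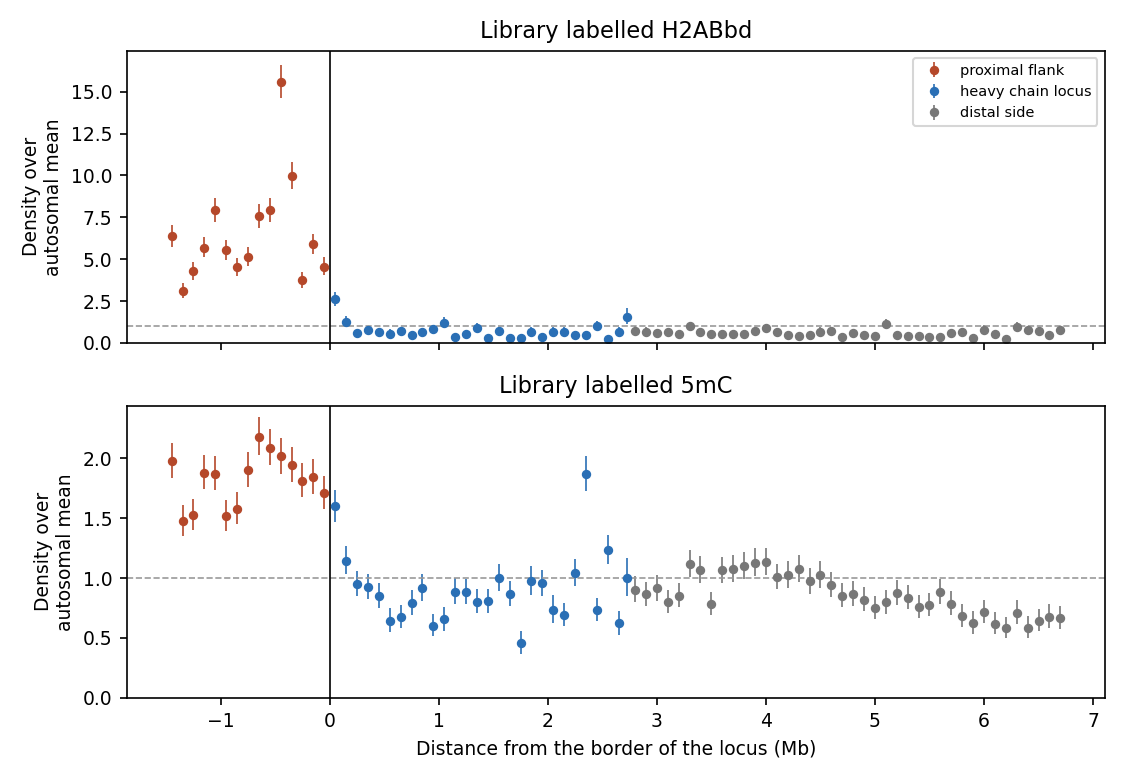
Density of each library (distinct reads per non-empty kb over the autosomal mean, linear axis) in the same 100 kb steps. H2ABbd goes from between 3.09 and 15.6 in the flank to between 0.225 and 2.62 in the locus, while 5mC goes from between 1.48 and 2.18 to between 0.456 and 1.87.

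Among the steps of the flank away from the border, the lowest ratios were 2.11 from 113.1 Mb on (190 H2ABbd and 520 5mC reads), next to the 2.08 and 2.69 already given. The highest after the steps at 114.0 and 114.1 Mb was 4.27 from 113.4 Mb on, with 492 and 665 reads. In the locus the highest ratio was 1.80 from 115.5 Mb on, where H2ABbd held 56 and 5mC 179 distinct reads, followed by 1.65 in the first step and 1.55 in the last. The lowest was 0.184 from 117.0 Mb on, with 13 and 407 reads, then 0.257 from 116.8 Mb on (29 and 651) and 0.353 from 116.1 Mb on (17 and 278). The step at 116.8 Mb held the most 5mC reads of the locus, and the first step (551) and the step at 117.0 Mb followed.

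The constant part lay between flank and variable part in both libraries. It held 254 H2ABbd and 1112 5mC distinct reads, with a density of 1.70 (1.50 to 1.92) for H2ABbd and 1.30 (1.23 to 1.38) for 5mC and a ratio of 1.32 (1.14 to 1.51). The variable part held 799 and 6562, with densities of 0.613 (0.572 to 0.657) and 0.882 (0.861 to 0.904) and a ratio of 0.702 (0.652 to 0.756). The constant part was thus above the autosomal mean in both libraries and the variable part below it in both. From variable to constant part the ratio was 1.88-fold higher (1.60 to 2.19), and from constant part to flank 2.74-fold (2.38 to 3.16).

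Cut into 10 steps of 250 kb, the length of the constant part, the variable part had ratios of 0.530 to 0.941. Each was below the 1.32 of the constant part. Its H2ABbd densities of 0.457 to 0.721 were all below the 1.70 of the constant part, while its 5mC densities of 0.674 to 1.27 came close to the 1.30 of the constant part at 1 step, from 116.75 Mb on. In steps of 50 kb the constant part had ratios of 0.678 to 1.68 (5 steps, median 1.39) and the variable part 0.131 to 3.13 (50 steps, median 0.648), so that the 2 parts overlapped at this size. The flank had 1.08 to 12.1 (30 steps, median 3.23).

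**Figure D3:**
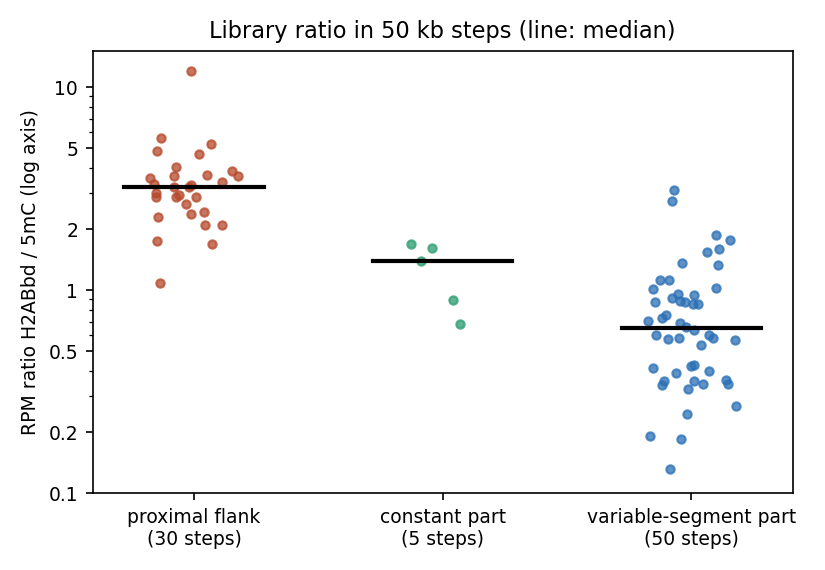
Library ratio (log axis) in 50 kb steps of the flank (30 steps), the constant part (5) and the variable part (50), each point 1 step and the line the median. The medians are 3.23, 1.39 and 0.648, and the points of neighbouring groups overlap.

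Within the constant part the reads of the library labelled H2ABbd were not spread evenly. In 10 kb steps it held 4 to 25 distinct reads (median 14) in the first 170 kb and 1 to 6 (median 3.5) in the other 80 kb. The library labelled 5mC held 24 to 101 (median 46) and 18 to 48 (median 34.5). The ratio was 1.55 (1.33 to 1.79) in the first 170 kb and 0.612 (0.403 to 0.900) in the other 80 kb, close to the 0.771 (0.580 to 1.01) of the first 150 kb of the variable part. The point at 170 kb was chosen after the values were seen, so these values are a description only. Which constant region genes lie on either side of it was not analysed here. On the flank side, the last 200 kb held 5 to 65 H2ABbd reads per 10 kb (median 33.5). The steps from 114470001 and from 114480001 were low, with 8 and 5 against 62 and 73 of 5mC, and the last step before the border held 26 and 61, close to the 23 and 79 of the first step after it.

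**Figure D4:**
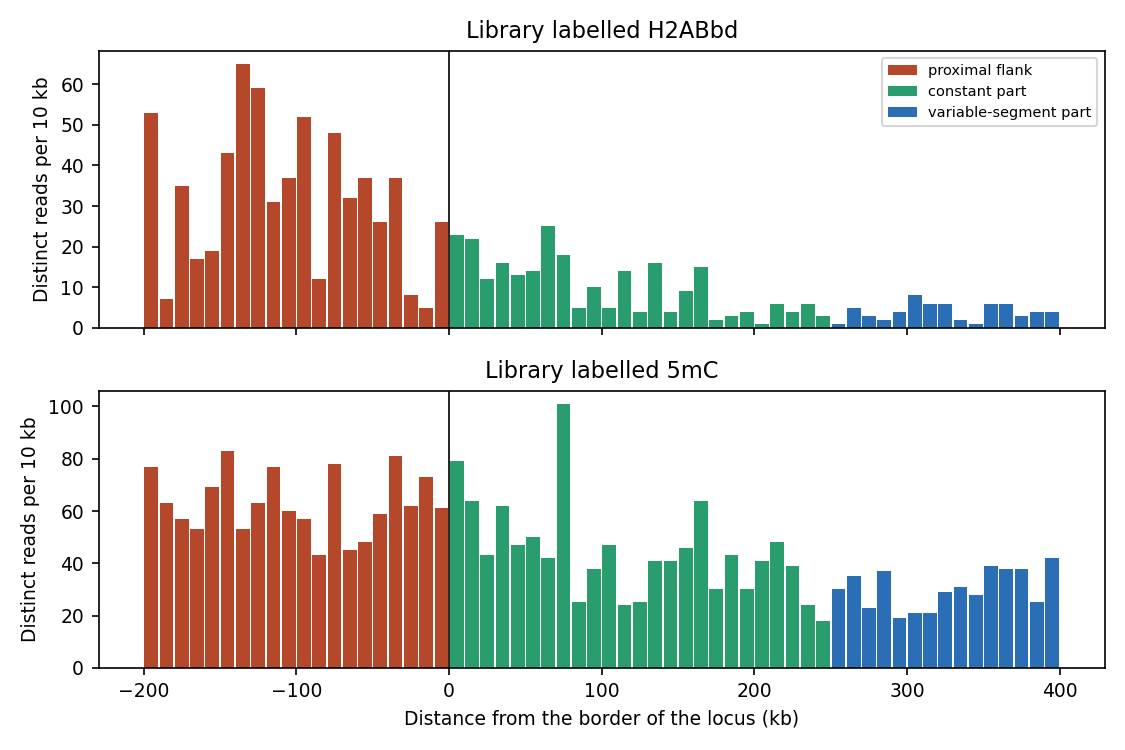
Distinct reads per 10 kb of each library from 200 kb before to 400 kb after the border at 114.5 Mb. H2ABbd is 5 to 65 per step before the border, 4 to 25 over the first 170 kb after it and 1 to 6 over the next 80 kb.

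Bins well above the mean of chromosome 12 were common in the flank and rare in the locus. A bin was called enriched in a library at 4 times the mean of its own chromosome or more and an adjusted Poisson tail of 0.01. On chromosome 12 this needs 6 H2ABbd or 14 5mC distinct reads, and the count needed on other chromosomes follows their own means. Of the non-empty bins, 324 of the flank (21.7%) and 18 of the locus (0.771%) were enriched in H2ABbd, against 1.18% of the bins of all chromosomes. In 5mC 58 bins of the flank (3.88%) and 28 of the locus (1.20%) were enriched, against 0.508%. Both libraries were enriched at 33 bins of the flank and 1 of the locus, against 0.122%. Thus the flank was above the background in all 3 calls, while the locus was below it for H2ABbd and above it for 5mC. The 5mC call of the flank depends on the threshold: at 8-fold 0 of its bins were called, against 0.0771% of all bins. Within the locus the constant part held 7 bins of each kind (2.92% each), above both backgrounds. The variable part held 11 in H2ABbd (0.525%), below the background, and 21 in 5mC (1.00%), above it. Without the bins enriched in either library the ratio of the flank was 2.21, that of the locus 0.843, and the flank was 2.62-fold above the locus.

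The enriched bins of the flank formed 195 runs in H2ABbd, the longest 16 kb, at 8.17 to 128 times the mean (median 10.9). Those of the locus formed 17 runs of at most 2 kb, at 8.17 to 31.3 times the mean (median 12.3). So the locus had fewer such bins, with a single pair of neighbours among them. The highest of them were at 115569001 (23 H2ABbd and 5 5mC distinct reads, 31.3-fold), 115479001 (20 and 7, 27.2-fold) and 116923001 (15 and 2, 20.4-fold), all in the variable part. The next were at 114635001 (13 and 17, 17.7-fold) and 114560001 (10 and 5, 13.6-fold), in the constant part. The bin at 114635001 was the one bin of the locus enriched in both libraries, with 5mC at 4.94-fold. Of the 33 such bins of the flank, 6 lay in the block from 114014001 described below. The others were spread from 113034001 to 114467001 and held 6 to 48 H2ABbd and 14 to 26 5mC distinct reads, with the most H2ABbd reads at 113414001 (48 and 14).

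The densest 5mC bins of the locus were at 116852001 (56 5mC and 3 H2ABbd distinct reads, 16.3-fold), 114574001 (36 and 5, 10.5-fold), 116855001 (32 and 0, 9.29-fold), 114573001 (27 and 3, 7.84-fold) and 114662001 (24 and 5, 6.97-fold). The first 4 of them were above the range of the flank, whose 5mC-enriched bins were at 4.07 to 7.55 times the mean. The highest of the flank were at 113375001 (26 5mC and 8 H2ABbd reads), 113167001 (24 and 17), 114014001 (23 and 72), 113724001 (22 and 14) and 113652001 (21 and 11). Between 116840001 and 116887000, in the variable part, 9 bins were enriched in 5mC. They held 211 5mC and 4 H2ABbd distinct reads, 32.4% of the 5mC reads of their 100 kb step. In the variable part 17 of the 21 5mC-enriched bins (81.0%) had no H2ABbd read, and so had 75.3% of all its non-empty bins, a share not far from it. After the deeper library was thinned to the depth of the other, 1 bin of the locus (0.0756%) and 0 of the flank were called in 5mC. The share of all bins was 0.0562%, so the flank was below it and the locus, with only 1 bin, above it. A count of 1 bin is too small to set the locus apart from the background at that depth.

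Of the H2ABbd reads of the flank, 11.4% lay in a single block of 9 kb, from 114014001 to 114023000. Its 9 bins held 68 to 94 H2ABbd distinct reads (median 73), while the 50 bins in the 25 kb on either side held 0 to 16 (median 2). The 5mC reads rose less, to 9 to 23 per bin (median 14) against 0 to 20 (median 6). In all the block held 693 H2ABbd and 128 5mC distinct reads, 105-fold and 4.13-fold the chromosome mean, and a ratio of 31.2 (25.8 to 38.0). Its 5 highest bins were the 5 highest of the flank, with 128-fold (103 to 157) at 114018001, then 121-fold, 109-fold, 102-fold and 99.4-fold at 114019001, 114020001, 114017001 and 114016001.

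The edges of the block were sharp. The H2ABbd reads covered 114014041 to 114022982, or 8942 bp, and 0 reads lay in the 500 bp on either side. Of its 90 stretches of 100 bp, 89 held the start of a read, with at most 15 in 1 stretch. The library labelled 5mC had 2 reads in each of those stretches of 500 bp. The H2ABbd reads had few repeats, 741 reads at 693 positions or 1.07 per position, against 1.28 in the whole flank, and 40.1% (36.4 to 43.9) were on the forward strand. What lies at the block was not analysed here, and its copy number was not tested. Without it the ratio of the flank was 3.24 (3.13 to 3.35) and that of its 100 kb step 2.66 (2.29 to 3.08) in place of 7.81, inside the range of the other steps of the flank.

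**Figure D5:**
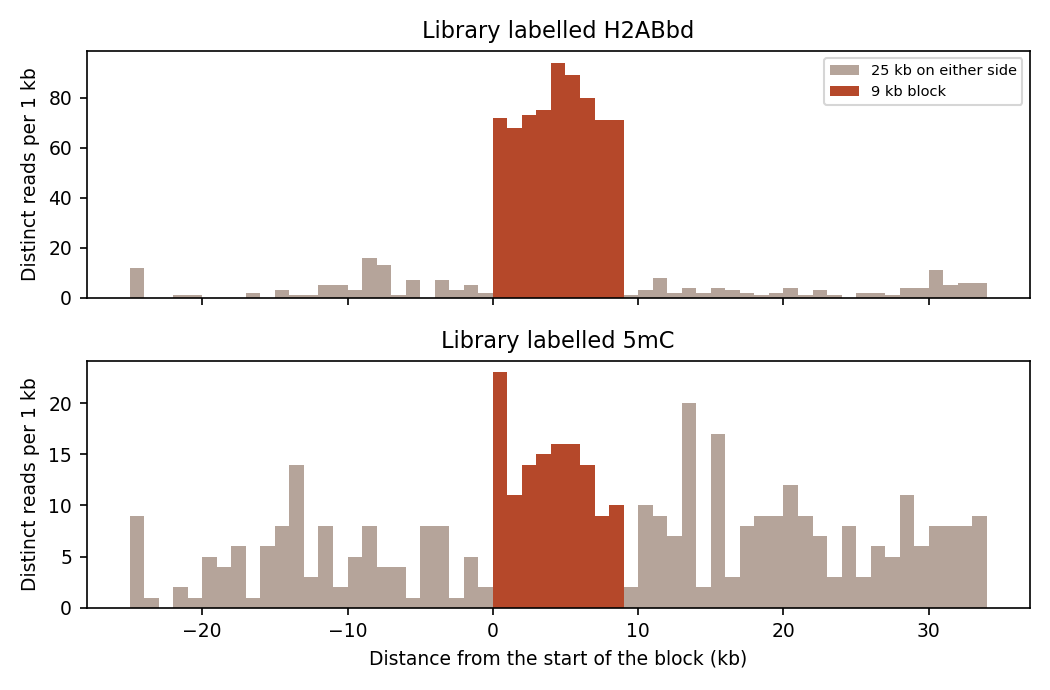
Distinct reads per 1 kb of each library in the 9 kb block that starts at 114014001 (dark) and in the 25 kb on either side (light), against distance from its start. H2ABbd is 68 to 94 in the block and 0 to 16 beside it, and 5mC is 9 to 23 and 0 to 20.

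Other long runs of H2ABbd-enriched bins were lower and less even. The longest, 16 kb from 114143001 to 114159000, held 321 H2ABbd and 128 5mC distinct reads, 27.3-fold and 2.32-fold the mean, with 6 to 33 H2ABbd reads per bin and a ratio of 14.5. A 5 kb run from 113412001 to 113417000 held 153 and 60, with 41.7-fold in H2ABbd and a ratio of 14.7, and was the densest after the block. The runs of 8 kb from 113973001, 7 kb from 113900001 and from 114368001, 6 kb from 113568001 and 5 kb from 114172001 were at 11.3 to 21.9 times the mean in H2ABbd with ratios of 7.40 to 9.79. At 40 times the mean or more there were 14 non-empty bins of the flank (0.936%) and 0 of the locus, against 0.0438% of all bins. The block held 9 of the 14, and without it 5 bins (0.336%) were left.

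At the far end the variable part and the DNA beyond it differed little in density and ratio as a whole. The steps that meet there and the share of 5mC-enriched bins differed more. Beyond 117250000 the 4.008 Mb to the end of the chromosome held 1323 H2ABbd and 11081 5mC distinct reads, with densities of 0.590 and 0.866 and a ratio of 0.688 (0.650 to 0.729). The variable part had 1.02 times that ratio (0.928 to 1.12), an interval that includes 1. The whole locus, constant part included, had 1.15 times it (1.05 to 1.25), an interval above 1. Its densities were 1.23-fold (1.13 to 1.33) for H2ABbd and 1.07-fold (1.04 to 1.10) for 5mC those beyond it. At full depth 1.00% of the non-empty bins of the variable part were enriched in 5mC. Beyond the locus 10 bins (0.278%) were, against 0.508% of all bins. In H2ABbd the shares were 0.525% and 0.416%, against 1.18%. Bins with no read in either library were 16.2% of the variable part and 10.1% of the DNA beyond. The last step of the locus, 50 kb long, held 43 H2ABbd and 160 5mC distinct reads, with an H2ABbd density of 1.54 (1.11 to 2.07) and a ratio of 1.55 (1.08 to 2.18). The first 100 kb beyond it held 39 and 273, with 0.738 (0.524 to 1.01) and 0.824 (0.573 to 1.16). The intervals of the H2ABbd density do not meet and those of the ratio do. The rest of chromosome 12, without locus and flank, had a ratio of 1.17 and densities of 1.11 and 0.958.

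Beside a pair of long olfactory receptor gene clusters, a family used mainly in sensory neurons of the nose, the locus as a whole had a ratio that differed by no more than counting error, and more reads of both libraries. The cluster of chromosome 2 (85500001 to 90000000) had a ratio of 0.854 (0.803 to 0.908) and densities of 0.542 for H2ABbd and 0.641 for 5mC. That of chromosome 9 (38000001 to 39500000) had 0.844 (0.760 to 0.936), 0.549 and 0.656. The locus had 0.926 times the ratio of the first (0.847 to 1.01) and 0.937 times that of the second (0.829 to 1.06), and both intervals include 1. Its variable part alone was at 0.822 (0.746 to 0.905) and 0.832 (0.732 to 0.946) times theirs. The 5mC density of the locus was 1.44-fold (1.40 to 1.49) and 1.41-fold (1.35 to 1.47) theirs. At the full depth of the library labelled 5mC neither cluster held a bin enriched in 5mC, against 1.20% of the locus and 0.508% of all bins. In H2ABbd 0.564% and 0.412% of the non-empty bins of the clusters were enriched, against 0.771% of the locus and 1.18% of all bins. Within H2ABbd reads of the variable part, 60.4% (56.5 to 64.1) were on the forward strand when enriched bins were left out. The share was 59.4% in the cluster of chromosome 2 and 54.6% over the autosomes. In the DNA beyond the locus it was 55.3% (52.4 to 58.1), and in the constant part 52.9% (45.2 to 60.5).

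The flank was compared with the imprinted Dlk1-Dio3 domain, some Mb closer to the centromere (110700001 to 111500000). That domain had a ratio of 2.25 (2.11 to 2.39) and densities of 2.92 and 1.31. Of its non-empty bins, 60 (7.69%) were enriched in H2ABbd, against 1.18% of the bins of all chromosomes and 21.7% of those of the flank. The flank was 1.61-fold above it in ratio (1.50 to 1.72), 2.23-fold in H2ABbd density and 1.39-fold in 5mC density. The comparison stretches were placed on mm9 from general knowledge, well inside the clusters as far as known, and their limits were not checked against an annotation.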

How the data were processed

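FastQC and Bowtie with the mm9 build were used by the authors, per the submitters' processing notes. No version or setting is given in the sources used here, nor how reads with several positions were handled. Each line deposited by the authors is 1 aligned 42 bp read, with repeats kept and no peaks called. The deposited score column holds 255 on every regular line and was not used. Broken lines (8 and 1) were left out.

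Reads at 1 position and strand were counted once, shifted by 100 bp in the direction of reading and binned at 1 kb. Density is per bin with a read in either library. The Poisson tail (Benjamini-Hochberg over bins) served as a filter within 1 library, not as a test of conditions. Intervals are exact: Clopper-Pearson for ratios and shares, conditional for ratios of ratios, Poisson for densities and folds. They cover counting error only, since PCR copies cannot be told from separate molecules here.

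Named regions are the 5 steps of 100 kb on each side of the border, the 3 highest and 3 lowest steps of locus and flank, the 5 highest enriched bins per library in each, the bins enriched in both libraries (those of the flank by their range), and runs of 5 or more empty bins; genes came from a list of 35, all found in the RefSeq table. Longer runs and the 9 kb block were chosen after their values were seen. The stretches and lists were chosen with earlier results of these data known. CpG (the letters CG, the same on both strands) was counted in 250 bases before each start. The alternatives kept all reads, left out covered or enriched bins, used 1 strand, no shift or a smaller one, thinned the deeper library, moved the borders and changed the call. The scripts were tested on simulated data. Sequence and annotation of mm9 were not used here. Computation used Python 3.11.15, numpy 2.4.6, scipy 1.17.1, pandas 2.3.3 and matplotlib 3.10.9.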

Additional observations from a re-analysis of the deposited data

How the results depend on the processing

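No paired analysis was possible because there was 1 library per group. Of 98 recomputed values of 12 results, 86 set beforehand and 12 chosen after seeing the data, 0 ratios and densities crossed 1. The interval of the 5mC density of the locus with reverse reads (0.942 to 1.01) did include 1. The constant part over the variable part stayed within its main interval in 11 of 11 (1.69 to 2.18); the other values that left theirs, or counts that moved by over 1.5 times, follow, and the cause was not tested. Ratios of flank, locus and flank over locus: without the most covered bins 3.07 (flank) and 3.78; forward reads 3.37, 0.848 and 3.97; reverse reads 3.89, 0.722 and 5.38; only bins with a 5mC read 3.75, 0.735 and 5.10; all reads 2.00 and 0.411. Flank over locus was 5.44 with 500 kb of flank and 3.27 with the first 500 kb of the locus. Chosen later, it was 2.62 without enriched bins (flank 2.21) and 3.94 without the 2 highest flank steps (flank 3.12, H2ABbd density 5.55). Densities of H2ABbd and 5mC were 0.331 and 0.827 (locus) and 3.26 and 1.67 (flank) with all reads, 0.807, 0.957, 5.05 and 1.51 with forward reads; with reverse reads 5mC was 0.974 (locus) and 1.59 (flank) and H2ABbd 6.09 (flank); H2ABbd of the flank was 5.53 without the most covered bins; over all bins, empty ones included (chosen later), the values were 0.897 (5mC, locus), 7.42 and 2.07 (flank). Enriched bins, H2ABbd in locus and flank, then 5mC in both, numbered 6, 131, 10 and 10 at a tail of 1e-05, and 8, 158, 4 and 1 in 5 kb bins. In 5mC they numbered 3 and 0 at 8-fold, 1 and 0 after thinning (with 200 H2ABbd bins in the flank), and 20 in the flank with all reads. In all 6 alternatives of the call the H2ABbd share was above that of all bins in the flank and below it in the locus. The 8-fold setting could not change the H2ABbd calls of locus or flank, which start at 8.17-fold. In all 6 the 5mC share of the locus was above that of all bins, but it rested on few bins in several. These were 3 bins at 8-fold, 4 in 5 kb bins and 1 after thinning. The 5mC share of the flank was above that of all bins in 4. It was below it, at 0, with 8-fold (0.0771% of all bins) and after thinning (0.0562%). At 1e-05 it was 0.669% against 0.205%, and in 5 kb bins 0.333%, which is 1 bin, against 0.176%. A mean non-empty bin of chromosome 12 holds 0.735 distinct reads of the library labelled H2ABbd, so a single bin shows an excess only from 6 reads on.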
